A study of Canis lupus familiaris with 28 samples.

Results

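Canine oral malignant melanomas (OMMs) were divided by their own level of CXCL8, the gene of interleukin 8. The 28 primary OMMs of the series were ranked by the log2 value of the single Transcript cluster annotated to CXCL8, and the 9 highest OMMs (CXCL8-high) were set against the 9 lowest (CXCL8-low), which left 10 OMMs of middle rank. A Transcript cluster is a set of array probes along a transcribed locus, and a log2 difference of 1 is a doubling of signal. Each OMM was a biopsy from the oral cavity of a different dog, fixed in formalin and embedded in paraffin, and gave 1 canine gene array. M OMMs came from dogs whose tumour metastasised and NM OMMs from dogs whose tumour did not. The CXCL8-high OMMs were 8 M and 1 NM, from 2 Dachshunds, 2 Labrador Retrievers, 2 Golden Retrievers, 1 Cross breed, 1 Border Collie and 1 Cocker Spaniel. The CXCL8-low OMMs were 5 M and 4 NM, from 5 Cross breed dogs, 2 Labrador Retrievers, 1 Golden Retriever and 1 Irish Terrier. The classes were made by the measured CXCL8 value rather than by an intervention, and the study assigned no treatment. According to the paper, the biopsies were taken before any adjuvant treatment. Dogs with M OMMs were included whether or not such treatment followed, and dogs with NM OMMs received none.

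CXCL8 is a secreted chemokine that draws neutrophils out of blood through the receptors CXCR1 and CXCR2. Melanoma cells, epithelial cells, fibroblasts, endothelial cells and macrophages can all make it, usually after interleukin 1, tumour necrosis factor, hypoxia or RAS-MAPK activity has switched on NF-kappaB and AP-1 at its promoter. In human melanoma it is known for effects on vessel growth and invasion as well as for the recruitment of myeloid cells. The biopsies were bulk tissue, so fewer cells of a type and less RNA per cell cannot be told apart in any value given here.

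CXCL8 itself is given as a description, since it chose the classes. Its log2 values had a lowest of 5.77, a median of 7.16 and a highest of 9.0 in CXCL8-high OMMs, against 2.06, 2.90 and 3.82 in CXCL8-low OMMs. The OMMs of middle rank lay between 3.82 and 5.45, with a median of 4.31. The upper boundary fell between 5.77 in a Golden Retriever M OMM (M replicate 8) and 5.45 in another (M replicate 15). The lower boundary was close to a tie, with 3.82 on both sides in a pair of Cross breed M OMMs (M replicate 11 inside and M replicate 3 outside). The highest values were 9.0 in a Dachshund (M replicate 6), 8.36 in a Labrador Retriever (M replicate 5) and 7.43 in another Labrador Retriever (M replicate 7).

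Labels that the ranking did not use were compared by two-sided Fisher's exact tests, adjusted over 3 tests. M OMMs made up 8 of 9 CXCL8-high and 5 of 9 CXCL8-low OMMs (p = 0.294, adjusted p = 0.441). Cross breed dogs bore 1 of 9 CXCL8-high and 5 of 9 CXCL8-low OMMs (p = 0.131, adjusted p = 0.394), and Golden Retrievers 2 of 9 CXCL8-high and 1 of 9 CXCL8-low OMMs (p = 1.0). None of the 3 tests passed the threshold at this number of OMMs. With a single NM OMM among the CXCL8-high, the difference of the contrast between M and NM OMMs was not fitted.

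The arrays of both classes differed as a whole. The first principal component of all Transcript clusters, the axis along which the 28 arrays differ most, took 34.9% of the variance. Its score averaged 13.5 ± 35.9 in CXCL8-high OMMs and -43.7 ± 30.5 in CXCL8-low OMMs (SD, n = 9 each), a difference with p = 0.00251 by a two-sided exact permutation test and an adjusted p of 0.00765 over 4 array measures. The array median averaged 1.57 in CXCL8-high and 1.62 in CXCL8-low OMMs (exact permutation test, adjusted p = 0.00765), and the share of Transcript clusters above a log2 value of 4 averaged 5.27% in CXCL8-high and 4.77% in CXCL8-low OMMs (adjusted p = 0.0206). The score did not follow CXCL8 evenly. Over all 28 OMMs Pearson's r between them was 0.26 (permutation p = 0.180) and Spearman's rho 0.40 (permutation p = 0.0363), r was 0.34 without the 2 OMMs farthest from the median CXCL8, and within the CXCL8-high OMMs r was -0.67. Without the Cross breed OMMs the score averaged 19.9 in 8 CXCL8-high and -17.0 in 4 CXCL8-low OMMs (exact permutation test, adjusted p = 0.0700), and r over the 21 OMMs left was 0.04. For some of the results below, values with this score as a covariate stand beside them. Where none is given, a result may move with the score as well. What the score stands for was not tested. RNA integrity and array quality by dog could not be joined to most arrays through the labels and were not used.

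**Figure D1:**
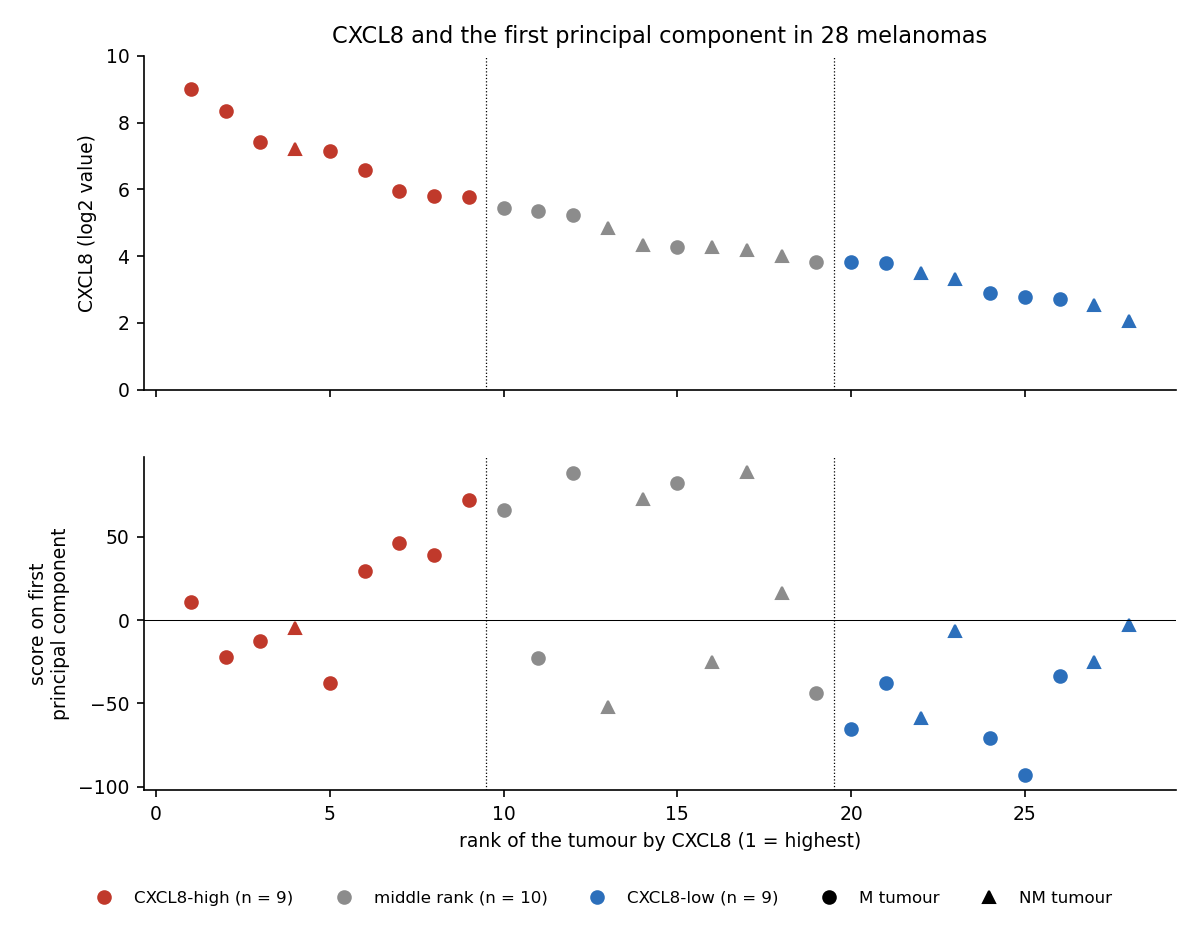
The upper panel plots the CXCL8 log2 value and the lower panel the score on the first principal component, both against the rank by CXCL8 (1 is the highest), with 1 point per OMM, circles for M and triangles for NM, red for CXCL8-high, grey for middle rank and blue for CXCL8-low. All 9 CXCL8-low OMMs score below 0, down to -93.2, while the CXCL8-high OMMs run between -37.7 and 72.2 and the middle ranks between -52.0 and 89.2.

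Few genes passed the threshold between the classes, and all 60 that were higher in CXCL8-high OMMs were brighter than the median Transcript cluster. Of 32390 Transcript clusters other than CXCL8, limma with Benjamini-Hochberg adjustment called 94 (0.29%), 60 higher in CXCL8-high OMMs (0.185%) and 34 lower (0.105%). Of the 60 higher, 45 had 1 gene symbol, and of the 34 lower 9 did. Among the 34 lower, 10 had values identical to those of another Transcript cluster, so the 94 hold fewer distinct profiles than their number. The higher genes included APP, the precursor of amyloid beta, NDUFB4, a subunit of respiratory complex I, ANXA2, a membrane-binding annexin, and S100A12, a calcium-binding protein of granulocytes. The lower genes included VASH1, an inhibitor of angiogenesis, and NKD1, an inhibitor of Wnt signalling. In the opposite sense, an unadjusted p under 0.05 was more often lower than higher in CXCL8-high OMMs, at 15.1% against 8.32% of Transcript clusters, and the median difference was -0.06. That balance moved with scaling. After each array was centred on its median, 77.5% of 178 calls were higher, against 63.8% of the 94, and 52.3% of the unadjusted calls were higher, against 35.6%.

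CLDND1, a claudin-like membrane protein, had the smallest p among genes with 1 symbol. Its log2 values had a lowest of 3.48, a median of 4.30 and a highest of 5.53 in CXCL8-high OMMs, against 2.53, 3.07 and 3.27 in CXCL8-low OMMs, so that the classes did not overlap. The difference was 1.52 ± 0.20 (SE), or 2.86-fold, with an adjusted p of 0.0148. Over all Transcript clusters 0.034% were higher without overlap and 0.0556% lower without overlap. APP also separated the classes, with 5.44, 6.30 and 6.74 in CXCL8-high OMMs against 3.97, 4.90 and 5.35 in CXCL8-low OMMs (difference 1.44 ± 0.20, adjusted p = 0.0148). VAPA, which tethers the endoplasmic reticulum to other membranes, had 3.0, 3.34 and 3.93 in CXCL8-high OMMs against 1.70, 2.34 and 2.87 in CXCL8-low OMMs (adjusted p = 0.0296). YKT6, a SNARE of vesicle fusion, had 2.02, 3.22 and 4.55 in CXCL8-high OMMs against 1.28, 1.51 and 1.98 in CXCL8-low OMMs (adjusted p = 0.0375). YKT6 has 2 Transcript clusters, of which the brighter is given and the other did not pass. NDUFB4 had 2.08, 3.47 and 4.13 in CXCL8-high OMMs against 1.24, 1.61 and 2.25 in CXCL8-low OMMs (difference 1.63 ± 0.23, adjusted p = 0.0148), and 8 of the 9 CXCL8-high OMMs lay above every CXCL8-low OMM. The middle ranks were spread over both classes in each of these genes.

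The largest rise among genes with 1 symbol was in S100A12, which neutrophils carry in quantity. Its lowest, median and highest log2 values were 3.65, 6.38 and 8.90 in CXCL8-high OMMs and 1.95, 2.47 and 6.66 in CXCL8-low OMMs, a difference of 3.41 ± 0.70 or 10.6-fold (adjusted p = 0.0470). Only 4 of the 9 CXCL8-high OMMs lay above the highest CXCL8-low OMM, a Labrador Retriever at 6.66 (M replicate 2). The middle ranks were higher still, at a median of 8.67, so that S100A12 did not rise in step with CXCL8. ANXA2 had 2.83, 6.10 and 7.30 in CXCL8-high OMMs against 1.38, 3.03 and 4.55 in CXCL8-low OMMs (difference 2.81 ± 0.58, adjusted p = 0.0470). TSC22D1, a transcription factor induced by TGF-beta, had 4.53, 6.44 and 7.65 in CXCL8-high OMMs against 2.82, 4.17 and 5.74 in CXCL8-low OMMs (difference 2.18 ± 0.40, adjusted p = 0.0375). TSC22D1 has 2 Transcript clusters, and the dimmer did not pass. With the first principal component as a covariate the differences were 2.71 for S100A12, 1.08 for ANXA2 and 1.67 for TSC22D1.

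Other genes that rose have roles in translation, splicing, signalling and protein breakdown. EIF4G2, an initiation factor of translation, differed by 1.60 (adjusted p = 0.0426), and PCBP2, which binds poly(C) stretches of RNA, by 1.64 (adjusted p = 0.0462). SF3B6, a subunit of the splicing factor SF3b, differed by 1.49 (adjusted p = 0.0375), MRPL15 of the mitochondrial ribosome by 0.53 (adjusted p = 0.0296) and YWHAE, the 14-3-3 protein epsilon, by 1.46 (adjusted p = 0.0480). With the first principal component as a covariate EIF4G2 differed by 0.66, PCBP2 by 0.72 and SF3B6 by 0.73. In the same fit MRPL15 differed by 0.43 and YWHAE by 0.72. PSMD14, the deubiquitinase of the proteasome lid, differed by 0.76 (adjusted p = 0.0296) in the brighter of its 2 Transcript clusters, and the other did not pass. PSMB7 of the proteasome core differed by 0.70 (adjusted p = 0.0462) and PSMC5 of its ATPase ring by 0.51 (adjusted p = 0.0470); both were picked out after their values were seen. MFHAS1 differed by 0.70 (adjusted p = 0.0345). NMRAL1, an NADPH sensor, stood apart from the others in following the first principal component little (r = 0.34 over 28 OMMs), and it differed by 0.47 (adjusted p = 0.0375).

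The named genes that fell and passed the threshold had log2 values of at most 3.18 in any OMM of the classes. VASH1 had 2.07, 2.26 and 2.59 in CXCL8-high OMMs against 2.52, 2.87 and 3.03 in CXCL8-low OMMs (difference -0.55 ± 0.08, adjusted p = 0.0219), and 8 of the 9 CXCL8-high OMMs lay below every CXCL8-low OMM. NKD1 had 1.98, 2.16 and 2.36 in CXCL8-high OMMs against 2.39, 2.60 and 3.18 in CXCL8-low OMMs, without overlap (difference -0.51 ± 0.10, adjusted p = 0.0431). PRRX2, a homeobox gene of mesenchyme, differed by -0.64 (adjusted p = 0.0470), MYPOP, a Myb-related transcription factor, by -0.47 (adjusted p = 0.0452) and SLC25A45, of the mitochondrial carrier family, by -0.42 (adjusted p = 0.0433). SGCA, the alpha-sarcoglycan of muscle and picked out after its values were seen, had a highest of 1.52 in CXCL8-high OMMs against a lowest of 1.53 in CXCL8-low OMMs (difference -0.38, adjusted p = 0.0431). SHISA2 (-0.47, adjusted p = 0.0511) and TFEB, a regulator of lysosomal genes (-0.53, adjusted p = 0.0511), missed the threshold.

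**Figure D2:**
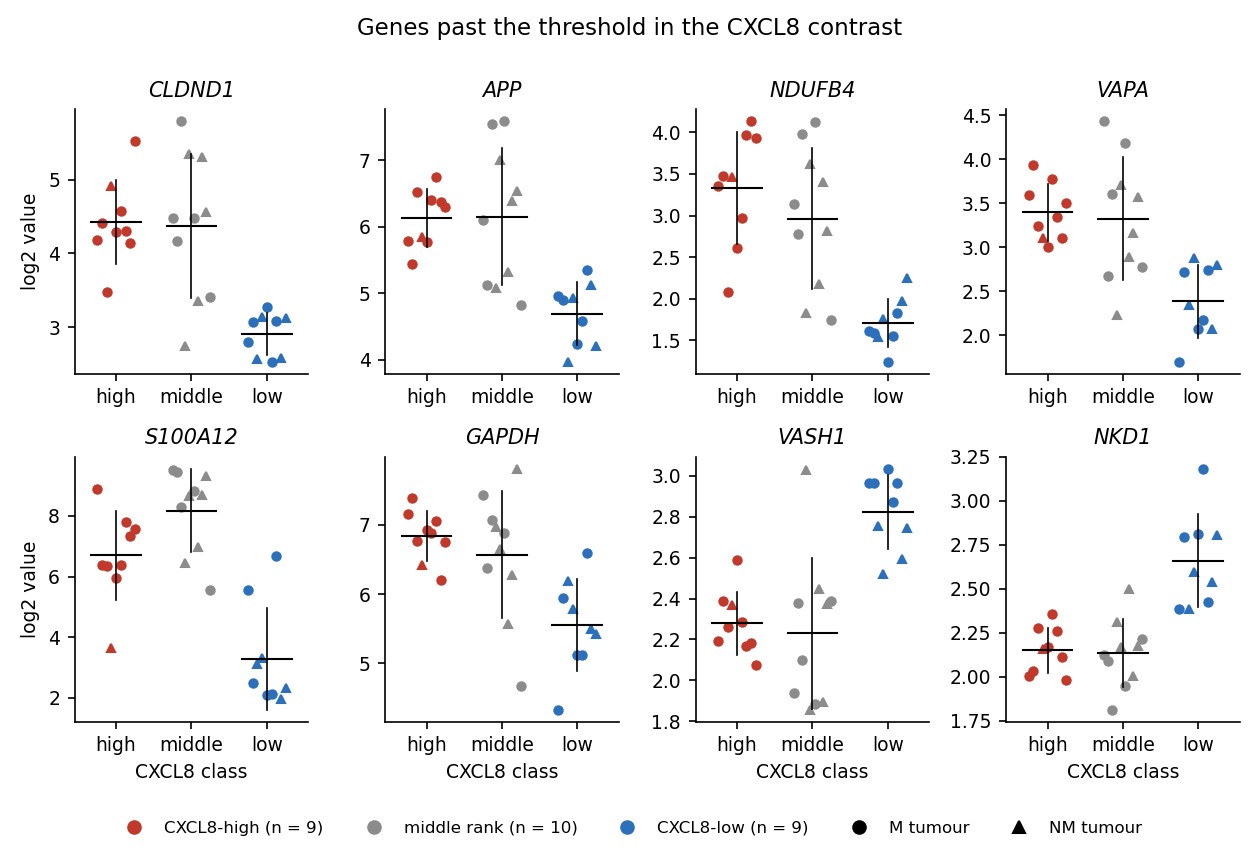
Log2 values (vertical axes, each with its own range) of 8 genes past the threshold by CXCL8 class, with 1 point per OMM, circles for M and triangles for NM, a horizontal bar at the class mean and a vertical line of 1 SD to either side. CLDND1, APP, VAPA and NKD1 do not overlap between CXCL8-high and CXCL8-low OMMs, while the 10 OMMs of middle rank span both, and S100A12 is highest in the middle ranks.

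The calls depended on how arrays and dogs were handled. With the first principal component as a covariate no Transcript cluster passed in either direction, and 905 (2.79%) had an unadjusted p under 0.05 in the higher and 884 (2.73%) in the lower direction, 5.52% in all. The 94 kept their sign in that fit and 90 of them kept an unadjusted p under 0.05, which is a description, since they were chosen on the same OMMs. Without the Cross breed OMMs (8 CXCL8-high against 4 CXCL8-low) 2 passed higher and 4 lower, and again the 94 kept their sign. Leaving out single OMMs moved the counts between 3 and 451 higher and between 0 and 498 lower. In the 10 OMMs of middle rank, which neither class holds, no slope on CXCL8 passed (410 rising and 391 falling at an unadjusted p under 0.05), and 71 of the 94 had a slope of the sign of their class difference, against 58.6% of all Transcript clusters.

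None of the measured cytokine, NF-kappaB, STAT3 or AP-1 genes passed the threshold, and the highest values of several lay in the 3 OMMs with the most CXCL8. Of 28 inflammatory cytokines and mediators measured, 5 had an unadjusted p under 0.05 in the higher and 3 in the lower direction (8.32% and 15.1% over all), and the median difference was 0.00. Of 28 genes of the NF-kappaB pathway the counts were 6 and 1, with a median of 0.07. The 13 genes of the IL6 and STAT3 response gave 5 and 1 with a median of 0.19, and that median was -0.02 with the first principal component as a covariate. None of 25 immediate early and AP-1 genes had an unadjusted p under 0.05.

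SOD2, the mitochondrial superoxide dismutase that NF-kappaB induces, was the gene most like CXCL8 over the 28 OMMs among those brighter than the median, by Pearson's r (0.74, Spearman's rho 0.63). Its log2 value was 4.92 in M replicate 6, 4.53 in M replicate 5 and 4.70 in M replicate 7, the 3 OMMs with the highest CXCL8, and between 2.08 and 2.70 in the other 6 CXCL8-high OMMs. The CXCL8-low OMMs lay between 1.77 and 2.20. The class difference was 1.13 ± 0.39 (adjusted p = 0.116), and r was 0.55 without the 2 OMMs farthest from the median CXCL8. In the middle ranks alone r was 0.62. PHC2, a Polycomb subunit singled out after its values were seen, had an r of 0.64 and differed by 0.27 (adjusted p = 0.113).

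IL1B, a strong inducer of CXCL8, followed part of that pattern. It measured 4.84 in M replicate 6, 4.61 in M replicate 7 and 3.05 in M replicate 1, both Dachshund OMMs and 1 Labrador Retriever OMM, and at most 2.47 in the other 6 CXCL8-high OMMs, against 1.78 to 2.17 in CXCL8-low OMMs (difference 0.84 ± 0.35, adjusted p = 0.167). PTGS2, the inducible cyclooxygenase, measured 5.21 in M replicate 6, 2.72 in M replicate 5 and 1.95 or less in the other 7 CXCL8-high OMMs, against 1.08 to 1.61 in CXCL8-low OMMs (difference 0.71, adjusted p = 0.284). Its r with CXCL8 was 0.60 over 28 OMMs and 0.30 without the 2 farthest, so that it rests on M replicate 6 and M replicate 5. CCL2, the chemokine of monocytes, was more widely shared, with 3.14, 4.80 and 7.14 in CXCL8-high OMMs against 1.80, 2.80 and 4.23 in CXCL8-low OMMs, and 6 of the 9 CXCL8-high OMMs lay above every CXCL8-low OMM (difference 1.79 ± 0.49, adjusted p = 0.0724). The r of CCL2 with CXCL8 also fell without the 2 farthest OMMs, from 0.55 to 0.33, and it was 0.03 in the middle ranks.

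NFKBIZ, a nuclear co-activator of NF-kappaB targets, had 1.90, 2.19 and 3.25 in CXCL8-high OMMs against 1.68, 1.85 and 2.13 in CXCL8-low OMMs (difference 0.48, adjusted p = 0.0997). SOCS3, the feedback inhibitor of STAT3, differed by 0.45 (adjusted p = 0.0903). NFKBIA, the NF-kappaB inhibitor induced by NF-kappaB itself, differed by 0.58 (adjusted p = 0.208), TNFAIP3, an inhibitor of the same pathway, by 0.19 (adjusted p = 0.444) and NFKBIE by -0.35 (adjusted p = 0.0901). BIRC2 differed by 0.69 (adjusted p = 0.101) and STAT3 by 0.71 (adjusted p = 0.107), but by 0.22 and -0.04 with the first principal component as a covariate. IL33, an epithelial alarmin, differed by 0.77 (adjusted p = 0.142), IL1RAP, a chain of the interleukin 1 receptor, by 0.27 (adjusted p = 0.148) and CSF1, the macrophage growth factor, by -0.39 (adjusted p = 0.113). TNF (difference -0.19, adjusted p = 0.177) had values of at most 1.82 in CXCL8-high and 2.17 in CXCL8-low OMMs. IL6 had values of at most 1.63 in CXCL8-high and 1.51 in CXCL8-low OMMs, close to the typical value of an array, and its difference of -0.05 (adjusted p = 0.757) turned positive after centring the arrays.

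**Figure D3:**
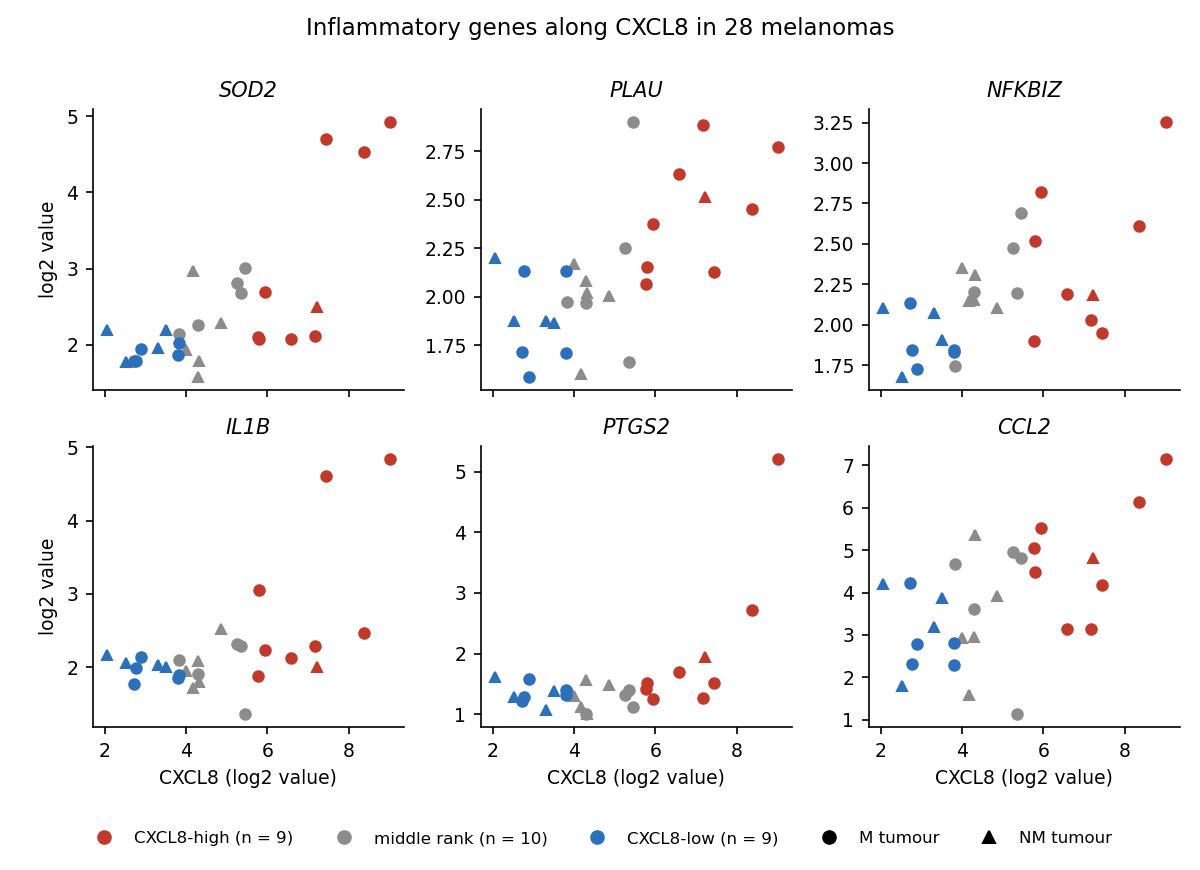
Log2 values of 6 genes (vertical axes, each with its own range) against the CXCL8 log2 value (horizontal axis) with 1 point per OMM, circles for M and triangles for NM, red for CXCL8-high, grey for middle rank and blue for CXCL8-low. SOD2 stands at 4.53 to 4.92 in the 3 OMMs with the most CXCL8, PTGS2 at 5.21 in 1 of them, while PLAU and CCL2 are spread over the whole range of CXCL8.

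The receptors of CXCL8 differed little and did not pass. CXCR2 had 1.25, 1.33 and 1.66 in CXCL8-high OMMs against 0.99, 1.22 and 1.80 in CXCL8-low OMMs (difference 0.09 ± 0.10, adjusted p = 0.624). CXCR1 differed by -0.08 (adjusted p = 0.611), PPBP, the platelet chemokine for the same receptors, by 0.24 (adjusted p = 0.615) and ACKR1, a decoy receptor of chemokines, by -0.22 (adjusted p = 0.124). Only 5 of 10 genes of this group had a Transcript cluster of their own symbol, and the related chemokines CXCL1 and CXCL5 were among those not analysed here. CXCL12, the stromal chemokine, differed by 0.13 ± 0.37 (adjusted p = 0.842).

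Of 22 neutrophil genes measured 1 passed, S100A12 (0.29% over all). At an unadjusted p under 0.05 there were 3 in each direction (8.32% higher and 15.1% lower over all), and the median difference was -0.02. All 3 of the higher ones were calgranulins. S100A9 had 2.86, 5.88 and 7.38 in CXCL8-high OMMs against 1.45, 2.95 and 4.19 in CXCL8-low OMMs (difference 2.34 ± 0.57, adjusted p = 0.0589), and S100A8 had 2.19, 7.05 and 7.66 in CXCL8-high OMMs against 1.09, 2.84 and 5.93 in CXCL8-low OMMs (difference 2.81 ± 0.84, adjusted p = 0.0871). CSF3R, the receptor of granulocyte colony-stimulating factor, had 1.52, 1.87 and 2.11 in CXCL8-high OMMs against 1.59, 1.72 and 2.49 in CXCL8-low OMMs, a difference of -0.03 (adjusted p = 0.903) whose sign turned after centring. NCF4, of the NADPH oxidase of phagocytes, differed by -0.38 (adjusted p = 0.0871), and MMP9, stored in neutrophil granules, by -0.02 (adjusted p = 0.881), which also turned sign after centring.

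Calgranulins are made by squamous epithelium as well as by neutrophils, and keratin values are given beside them. KRT5, the keratin of basal epithelium, had 1.51, 2.36 and 5.60 in CXCL8-high OMMs against 1.24, 1.99 and 2.31 in CXCL8-low OMMs (difference 0.98, adjusted p = 0.221), and its median in the middle ranks was 5.35. KRT13, of the oral mucosa, differed by 0.67 (adjusted p = 0.169) and had a median of 5.11 in the middle ranks. The middle ranks also had the highest medians of S100A8 (8.15) and S100A9 (7.24). Over the 35 epithelial genes measured, none passed. At an unadjusted p under 0.05, 3 were higher and 4 lower, near the 8.32% and 15.1% over all, and the median difference was 0.01. The mean log2 value of the list ran between 1.63 and 2.44 in CXCL8-high and between 1.60 and 2.31 in CXCL8-low OMMs. The part of epithelium in the calgranulin values was not tested.

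**Figure D4:**
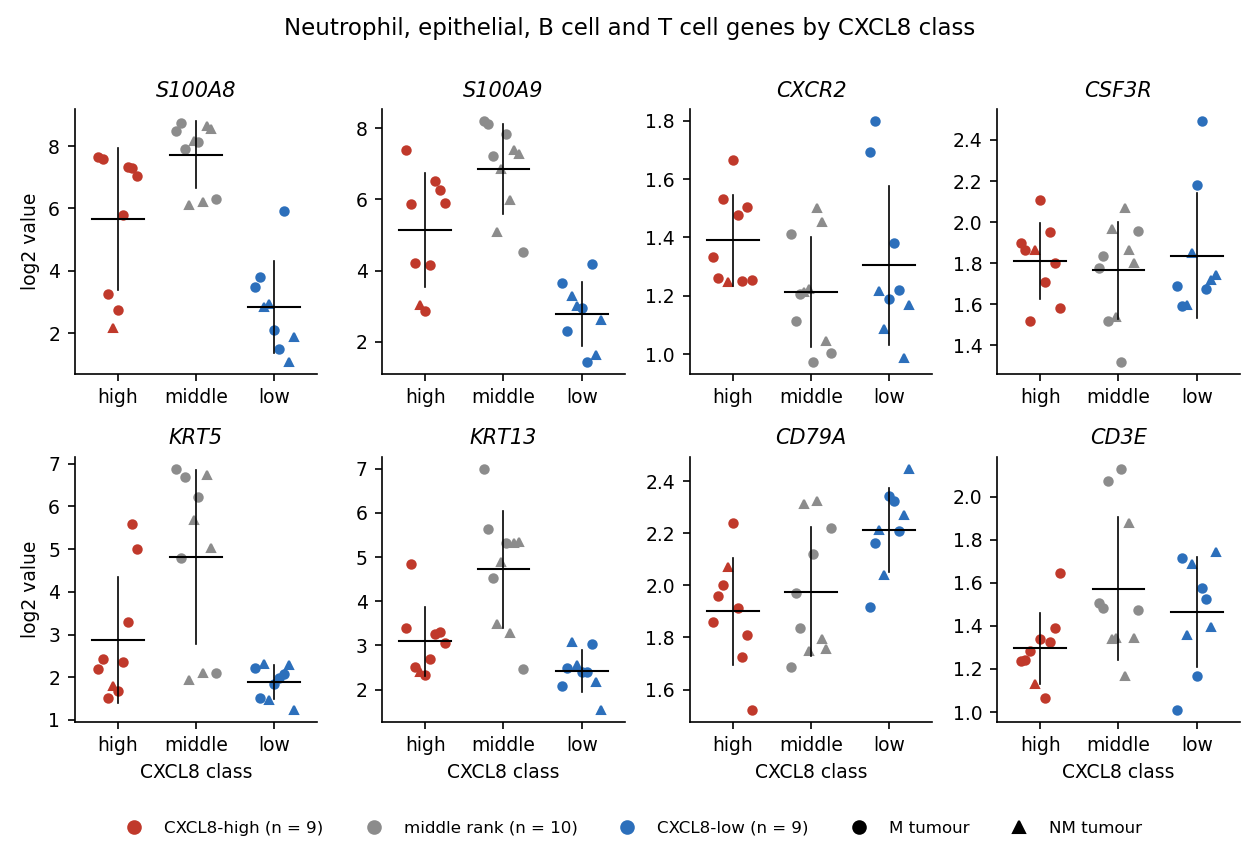
Log2 values (vertical axes, each with its own range) of calgranulins, neutrophil receptors, keratins and B and T cell genes by CXCL8 class, with 1 point per OMM, circles for M and triangles for NM, a horizontal bar at the class mean and a vertical line of 1 SD to either side. S100A8, S100A9, KRT5 and KRT13 are highest in the 10 OMMs of middle rank, CXCR2 and CSF3R lie under 2.5 throughout, and CD79A is lower in most CXCL8-high than in most CXCL8-low OMMs.

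The list of matrix metalloproteinases, the plasmin system and the inhibitors of both had the highest share of unadjusted calls outside the respiratory chain. Of 23 measured, 11 had an unadjusted p under 0.05 in the higher and 1 in the lower direction (8.32% and 15.1% over all), and none passed. With the first principal component as a covariate 2 were higher at that level (2.79% over all). The median difference was 0.37, or 0.31 with the covariate. The mean of the list lay between 2.20 and 2.58 in CXCL8-high OMMs and between 1.90 and 2.18 in CXCL8-low OMMs. PLAU, the urokinase that turns plasminogen into plasmin, was next to SOD2 in likeness to CXCL8 over the 28 OMMs (r = 0.67, rho = 0.62, r = 0.60 without the 2 farthest OMMs). It had 2.07, 2.45 and 2.89 in CXCL8-high OMMs against 1.59, 1.87 and 2.20 in CXCL8-low OMMs (difference 0.54 ± 0.12, adjusted p = 0.0511), and the difference was 0.69 with the first principal component as a covariate. ADAM10, a protease that sheds membrane proteins, differed by 0.83 ± 0.20 (adjusted p = 0.0575) and TIMP2, an inhibitor of metalloproteinases, by 1.23 ± 0.33 (adjusted p = 0.0689). MMP7, or matrilysin, went the other way by -0.34 (adjusted p = 0.0669). MMP1, the interstitial collagenase, differed by 0.42 (adjusted p = 0.211), with 3.06 in a Dachshund OMM (M replicate 1) and at most 1.75 in the other CXCL8-high OMMs.

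Glycolytic and hypoxia genes were in 1 direction where they moved. Of 35 measured, 11 had an unadjusted p under 0.05, all higher (8.32% over all), and 24 had a difference above 0 (37.2% over all). With the first principal component as a covariate 5 were higher at that level (2.79% over all), and 29 had a difference above 0 (49.98% over all). The mean of the list lay between 2.21 and 2.42 in CXCL8-high OMMs and between 2.06 and 2.17 in CXCL8-low OMMs. GAPDH, of glycolysis and often used as a control gene, passed, with 6.21, 6.87 and 7.38 in CXCL8-high OMMs against 4.33, 5.49 and 6.59 in CXCL8-low OMMs (difference 1.28 ± 0.24, adjusted p = 0.0379), and it was higher after renewed quantile normalisation and after centring too. It has 2 Transcript clusters, of which the dimmer did not pass, and copies of it elsewhere in the genome could share signal. GPI, the next enzyme after hexokinase in glycolysis, is not on the list, was picked out after its values were seen, and differed by 0.74 ± 0.15 (adjusted p = 0.0433). LDHA, which makes lactate, had 6.23, 6.93 and 7.83 in CXCL8-high OMMs against 1.74, 5.18 and 6.37 in CXCL8-low OMMs (difference 2.11 ± 0.49, adjusted p = 0.0566). The LDHA difference was 1.06 with the first principal component as a covariate. BNIP3L differed by 0.64 ± 0.14 (adjusted p = 0.0517) and P4HA2, a collagen hydroxylase, by 0.32 (adjusted p = 0.0779). VEGFA, the growth factor of vessels, differed by 0.52 ± 0.17 (adjusted p = 0.0993). SLC2A3, a glucose transporter, also singled out by its likeness, had an r with CXCL8 of 0.64 over 28 OMMs and a difference of 0.42 (adjusted p = 0.118), while the transporter SLC2A1 differed by 0.14 (adjusted p = 0.575) and ADM, the hypoxia-induced peptide adrenomedullin, by -0.05 (adjusted p = 0.872).

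No lymphocyte gene passed. Of 18 B and plasma cell genes 7 had an unadjusted p under 0.05, all lower, where 15.1% of all Transcript clusters did, and 5 did with the first principal component as a covariate (2.73% over all). They had a median difference of -0.24 that was also -0.24 with the covariate. CD79A, a chain of the B cell receptor complex, had 1.52, 1.91 and 2.24 in CXCL8-high OMMs against 1.92, 2.21 and 2.45 in CXCL8-low OMMs (difference -0.31 ± 0.09, adjusted p = 0.0787). FCRL1, on B cells, differed by -0.33 (adjusted p = 0.0689) and IRF4, which plasma cells need, by -0.37 (adjusted p = 0.0997). Of 30 T and NK cell genes 6 had an unadjusted p under 0.05, all lower, a share near the 15.1% over all, with a median of -0.11. CXCR3 differed by -0.27 (adjusted p = 0.107), CD5 by -0.32 (adjusted p = 0.111) and CD3E by -0.17 (adjusted p = 0.317). All these values were near the bottom of the scale, where 74.2% of Transcript clusters had a mean under 2.

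Macrophage genes went both ways. SPP1, or osteopontin, had 2.0, 3.0 and 5.12 in CXCL8-high OMMs against 1.81, 1.89 and 2.46 in CXCL8-low OMMs (difference 1.24 ± 0.36, adjusted p = 0.0824), but 0.33 with the first principal component as a covariate. SIGLEC1, the sialoadhesin of macrophages, differed by -0.29 (adjusted p = 0.0864), CD14 by 0.03 (adjusted p = 0.916) and CD163 by -0.01 (adjusted p = 0.937), whose sign turned after centring. Of the 25 genes of antigen processing and presentation none passed, and 2 had an unadjusted p under 0.05, both lower (15.1% over all). These were CIITA (-0.44, adjusted p = 0.0959), the master regulator of class II genes, and PSMB8 (-0.35, adjusted p = 0.117), of the immunoproteasome. The median difference of the 25 genes was 0.00, and -0.37 with the first principal component as a covariate. In that fit none of the 25 lay above 0 (49.98% over all) and 8 were lower at an unadjusted p under 0.05 (2.73% over all).

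The melanocyte genes that mark the tissue as melanoma were present in both classes and wide in range. PMEL, the melanosome matrix protein, had 1.70, 3.61 and 6.74 in CXCL8-high OMMs against 2.0, 3.08 and 4.81 in CXCL8-low OMMs (difference 0.75, adjusted p = 0.484). MITF, the master regulator of melanocytes, differed by 0.66 (adjusted p = 0.214), and DCT, an enzyme of melanin synthesis, by 1.32 ± 0.54 (adjusted p = 0.158). RAB38, which carries melanosome cargo, differed by 1.34 (adjusted p = 0.142). SOX10, the neural crest factor of melanocytes, lay on the other side, with 2.67, 2.90 and 3.19 in CXCL8-high OMMs against 2.53, 3.67 and 4.23 in CXCL8-low OMMs (difference -0.62 ± 0.19, adjusted p = 0.0877). Of 20 genes of dedifferentiated and neural crest-like melanoma, 5 had an unadjusted p under 0.05, all higher (8.32% over all). With the first principal component as a covariate 2 were higher at that level (2.79% over all). CAV1, the coat protein of caveolae, differed by 1.39 ± 0.34 (adjusted p = 0.0589), CD44, the hyaluronan receptor, by 0.99 (adjusted p = 0.0749), SNAI2, or SLUG, by 1.20 (adjusted p = 0.0906) and VIM, or vimentin, by 2.18 (adjusted p = 0.106). For VIM 1 Cross breed CXCL8-low OMM lay at 1.39 (M replicate 17) and the other 8 at 5.68 or above.

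The proliferation list held 10 genes with an unadjusted p under 0.05 of 40 measured, all higher (8.32% over all), and also 10 with the first principal component as a covariate (2.79% over all). TYMS, thymidylate synthase, had 1.87, 4.26 and 5.48 in CXCL8-high OMMs against 0.55, 1.82 and 3.03 in CXCL8-low OMMs (difference 2.14 ± 0.48, adjusted p = 0.0511). CDK1, the mitotic kinase, differed by 0.49 (adjusted p = 0.0678) and MCM6, of the replicative helicase, by 0.40 (adjusted p = 0.0736). MKI67, the gene of Ki67, differed by -0.03 (adjusted p = 0.875), with a sign that turned after centring. Of 20 stress response genes 7 were higher and 1 lower at an unadjusted p under 0.05 (8.32% and 15.1% over all). With the covariate 1 was higher (2.79% over all). Among the 7 were ATF6 (0.52, adjusted p = 0.0768) and HSPA5 (0.52, adjusted p = 0.0882), sensor and chaperone of the endoplasmic reticulum, and with the covariate the differences were 0.60 for ATF6 and 0.02 for HSPA5.

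In 3 lists with a large median difference that difference was near 0 or turned round with the first principal component as a covariate. Cytosolic ribosomal proteins had a median difference of 0.72 over 59 genes, with 54 above 0 (37.2% over all), but of -0.45 with that component as a covariate. Members such as RPS21 (1.26, adjusted p = 0.133) and RPL4 (0.85, adjusted p = 0.139) have copies across the genome that could share signal. Oxidative phosphorylation had a median of 0.34 over 39 genes, with 22 higher and 1 lower at an unadjusted p under 0.05, against 8.32% and 15.1% over all. With the covariate the median was 0.01 and 2 were higher at that level (2.79% over all). NDUFB4, which passed, is not on this list. Of the list members NDUFV2 (1.45, adjusted p = 0.0511) and NDUFB9 (0.78, adjusted p = 0.0511), both of complex I, came closest to the threshold. Fibroblast and collagen genes had a median of 0.50 over 29 genes, and of 0.02 with the covariate. At an unadjusted p under 0.05, 8 were higher without it (8.32% over all) and 0 with it (2.79% over all). ACTA2, smooth muscle actin, differed by 1.38 ± 0.36 (adjusted p = 0.0677), FN1, or fibronectin, by 0.97 (adjusted p = 0.104) and COL1A1 by 0.68 (adjusted p = 0.255). None of 32 endothelial and pericyte genes had an unadjusted p under 0.05, and PECAM1, of endothelial junctions, differed by 0.59 (adjusted p = 0.219). Of 29 skeletal muscle genes 5 were lower at that level, near the 15.1% over all, and 0 were lower with the covariate (2.73% over all). TNNC2, a troponin of fast fibres, differed by -0.34 (adjusted p = 0.0631).

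**Figure D5:**
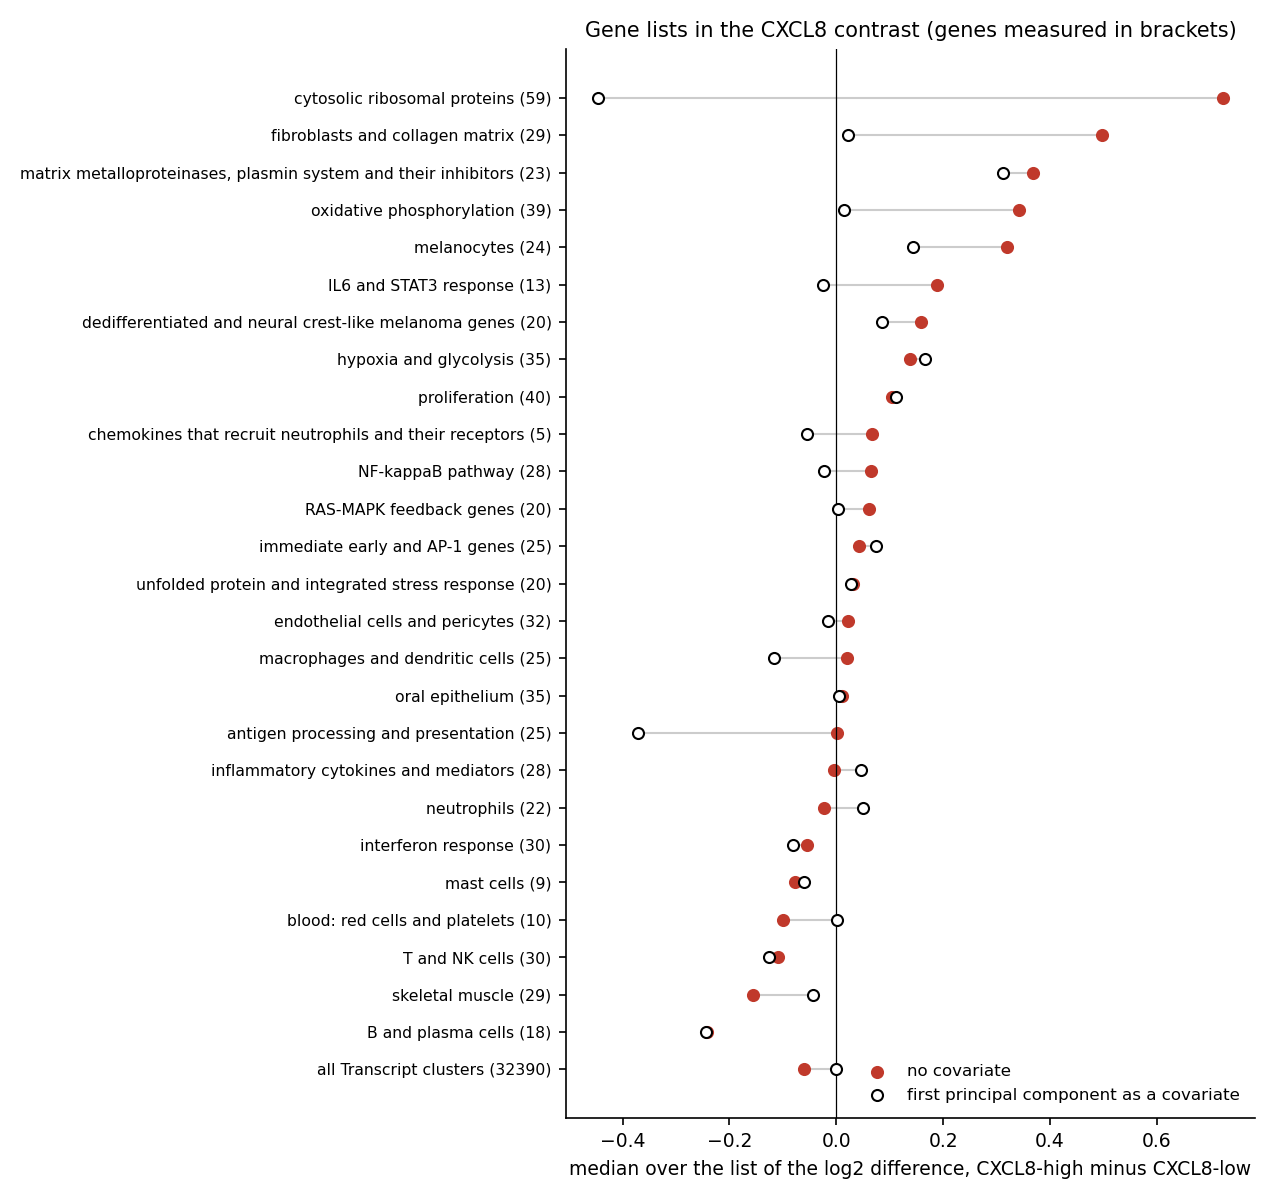
Median over each gene list of the log2 difference between CXCL8-high and CXCL8-low OMMs (horizontal axis), without a covariate (filled) and with the first principal component as a covariate (open), for 26 lists and all Transcript clusters, with the number of genes measured in brackets. Ribosomal proteins run between 0.72 and -0.45. The list of matrix metalloproteinases, the plasmin system and their inhibitors has medians of 0.37 and 0.31, and the B and plasma cell list -0.24 in both fits.

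The 4 Labrador Retriever OMMs allowed a view within 1 breed, 2 CXCL8-high (M replicate 5 and M replicate 7) against 2 CXCL8-low (M replicate 2 and NM replicate 4), with no test. All 4 are part of the full contrast, so a shared sign was likely beforehand and is only a description. SOD2 differed by 2.83 between the means of these Labrador Retriever OMMs, CCL2 by 2.14 and IL1B by 1.62. S100A12 differed by 2.05, CLDND1 by 1.11 and VASH1 by -0.45, and each of the 6 genes had the sign of the full contrast. TIMP2 differed by -0.36 and SPP1 by -0.05, of the opposite sign.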

How the data were processed

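The authors extracted RNA from formalin-fixed biopsies, hybridised 1 canine gene array per OMM, excluded arrays with outlying quality metrics and processed the rest with Affymetrix Expression Console 1.3. The deposited log2 values are gene-level RMA values, quantile normalised across 28 arrays, for 32391 Transcript clusters. Arrays carry no counts, so the number of OMMs and the signal over background limit precision.

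Groups were made from the CXCL8 value. The members, gene lists and tests were chosen with earlier results of these data known. The CXCL8 contrast was fitted in limma (version 3.58.1, R 4.3.3) over every Transcript cluster but CXCL8, two-sided, calling Benjamini-Hochberg adjusted p under 0.05; the script was tested on simulated data. Array measures and labels were compared with scipy 1.17.1. Of the Transcript clusters, 16878 carried 1 gene symbol in the array annotation; the brightest was used per gene. Up to 10 genes in each direction by p and by difference, up to 4 per list and fixed single genes were named; PHC2, SLC2A3, GPI, PSMB7, PSMC5 and SGCA were added later. No sequence is shown. Replicate numbers name samples and pair none. Alternatives covered the test, scaling, filters, covariates, samples and class size.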

Additional observations from a re-analysis of the deposited data

Results flagged for a closer look

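Single OMMs stood away from the rest of their class in 16 of 222 sets of 9 values, where the gap to the nearest OMM was a large share of the whole range. The sets were part of the named genes, each in the CXCL8-high and in the CXCL8-low OMMs. For sets of independent, normally distributed values chance alone would mark about 1 in 20. The rate for sets of these genes was not measured. Among the CXCL8-high OMMs, PPBP reached 4.27 in the Cocker Spaniel (M replicate 9), where the next highest was 1.85, and CXCL12 reached 4.61 in the same OMM. PTGS2 reached 5.21 in a Dachshund (M replicate 6), and MMP1 reached 3.06 in the other Dachshund (M replicate 1). ADM reached 2.88 and KRT13 4.84 in a Labrador Retriever (M replicate 5), and ATF6 reached 3.30 in the other (M replicate 7). SLC2A1 reached 2.95 in a Golden Retriever (M replicate 8), in which NFKBIE was lowest at 1.37, and NCF4 reached 2.12 in the Golden Retriever NM OMM (NM replicate 9). YWHAE was lowest at 4.11 in the Cross breed OMM (M replicate 4). Among the CXCL8-low OMMs, IL33 reached 3.86 and CAV1 4.70 in a Labrador Retriever (NM replicate 4), YKT6 reached 1.98 in a Golden Retriever (NM replicate 6) and CD163 2.09 in the Irish Terrier (NM replicate 7). VIM was lowest at 1.39 in a Cross breed OMM (M replicate 17), where the next lowest was 5.68.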

How the results depend on the processing

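The counts of 60 higher and 34 lower Transcript clusters moved with most alternatives, while the 94 kept their sign in each alternative fit of the class contrast that tested them. In the slopes of the middle ranks 71 of the 94 kept it, and of the named genes MRPL15, PCBP2, VASH1 and PRRX2 did not. Fewer passed with the methods' t-test (3 higher and 1 lower), with trend and robust options (31 and 21), after renewed quantile normalisation (26 and 8), with the Golden Retriever and Cross breed labels as covariates (1 and 0), with the first principal component as a covariate (0 and 0), without Cross breed OMMs (2 and 4), with breed as a random block (24 and 10), with the 7 highest against the 7 lowest (1 and 0) and with the 14 highest against the 14 lowest (0 and 0). No slope on CXCL8 over all 28 OMMs passed (0 and 0). More passed after centring each array (138 and 40), among Transcript clusters with a mean above the median (295 and 226) or the brightest 40% (361 and 277), with metastatic status as a covariate (202 and 301) and in M OMMs alone (265 and 610). Array weights gave 66 and 44. Replicate numbers of the labels name no shared animal or batch; with them as a random replicate block, for 4 shared numbers and an estimated correlation of -0.11, 117 and 82 passed. Chosen after seeing the data, breed as a fixed block in the breeds of both classes (5 against 8), the slope over 28 OMMs with the first principal component, and leaving out Cross breed and Golden Retriever OMMs (6 against 3) each gave 0 and 0. Leaving out single OMMs gave 3 to 451 higher and 0 to 498 lower, and each of the 18 moved the total of 94 by more than 1.5 times, between 3 without M replicate 17 or M replicate 9 and 949 without M replicate 4; the cause was not tested. Of the values of named genes under alternatives other than leaving out 1 OMM, 2580 stayed on their side of the threshold, 300 no longer passed it, 79 passed it anew and 95 changed sign without passing it in either fit. No named gene past the threshold turned direction in another fit of the class contrast, while the differences near 0 of IL6, MMP9, CSF3R, CD163 and MKI67 did on rescaling.

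The classes hold 9 OMMs each. Most lymphocyte and cytokine genes named lie near the bottom of the signal range, as do CXCR1 and CXCR2. The smallest difference that the fit detects there was not measured.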
